A study of Sus scrofa with 6 samples.

Results

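Signals of 4 genes for secreted antimicrobial and lectin defence proteins, CHI3L1, LYZ, PGLYRP1 and FCN1, were compared between a pair of blood monocyte populations of the pig. Every probe set annotated with 1 of these symbols was taken, which gave 11 probe sets of the 47722 non-control probe sets on the array, and 4 genes of the 13755 annotated ones. Probe sets were taken by symbol, and the 4 genes were chosen with earlier results of these data known. The peripheral blood mononuclear cells came from 3 Large White Landrace F1 piglets, 8 weeks old, and had been frozen and thawed before staining. From each pig a CD14low-CD163high population (here CD163high) and a CD14high-CD163low population (here CD163low) were sorted, and 1 array was hybridised per population, so that there were 3 arrays in each group. No agent or mutation was applied, and both populations came from the same thawed cells.

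Blood monocytes make and release proteins that bind or break the surfaces of microbes. Lysozyme (LYZ) cleaves the peptidoglycan of bacterial walls, and PGLYRP1, a peptidoglycan recognition protein best known from neutrophil granules, binds it. FCN1, ficolin-1, is a lectin for acetylated sugars that works with serine proteases of the lectin pathway of complement, and in human blood its transcript is abundant in classical, CD14-high monocytes. CHI3L1 belongs to the chitinase family but binds chitin without cutting it, and in human tissue macrophages and neutrophils secrete it.

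The labels were checked on the sort antigens before the members were read. In the brighter probe set of CD163, the scavenger receptor for haemoglobin-haptoglobin complexes, log2 signals were 8.17, 7.98 and 7.61 in CD163high of pigs 1, 2 and 3. They were 4.97, 6.17 and 6.54 in CD163low, so these groups did not overlap. The dimmer CD163 probe set had 5.37, 5.29 and 4.28 in CD163high, against 3.14, 4.29 and 4.34 in CD163low. Its groups overlapped, pig 3 had the opposite sign (-0.056), and CD163low of pig 1 was dimmer than the average background control. CD14, the co-receptor for lipopolysaccharide, had 4.31, 5.53 and 5.82 in CD163high, against 6.24, 5.78 and 6.84 in CD163low. It was lower in CD163high within each pig, and the groups overlapped. The Y-linked gene EIF1AY had 9.16, 9.17 and 4.57 in CD163high and 5.09, 9.12 and 6.88 in CD163low, so the arrays labelled as pig 1, and those labelled as pig 3, differed in a gene that should be alike within an animal. EIF1AY had 9.12 to 9.17 on the 3 arrays with the lowest background controls and 4.57 to 6.88 on the other 3. A fault of the labels and an effect of the array cannot be told apart here. Values given per pig therefore rest on the labels alone, whereas the group means and the test do not use the pairing. Of the monocyte markers CSF1R, CD68 and FCGR3A no probe set carried the symbol; ITGAM, SIRPA and LYZ were above the mean of the background controls on every array. Markers of T cells (6 of 8 measured), erythroid cells (3 of 6), B cells (5 of 6) and NK cells (7 of 7) also gave signal, though not all on every array. Of these, CD3D, CD3G, NCR1, KLRK1, KLRB1, ALAS2 and AHSP were dimmer than the average background control in some arrays, KLRB1 in 5. The erythroid markers averaged 8.30 in CD163high and 8.12 in CD163low of pig 2. In pigs 1 and 3 they averaged 3.24 and 3.36 in CD163high and 2.99 and 3.41 in CD163low, near background. On average the T cell markers had a log2 signal of 5.09, 7.60 and 4.72 in CD163high, against 5.41, 7.54 and 5.92 in CD163low, highest in both arrays of pig 2. The B cell markers averaged 5.58, 7.03 and 5.53 in CD163high and 5.99, 7.39 and 6.22 in CD163low, and those of NK cells 5.01, 6.05 and 5.03 in CD163high and 5.33, 6.29 and 5.48 in CD163low. Means of the 5 platelet markers ran between 3.53 and 3.79 in CD163high and between 3.95 and 4.09 in CD163low, and those of the 4 dendritic cell markers between 4.22 and 4.38 in CD163high and between 3.97 and 4.69 in CD163low. The summed linear signal of the erythroid markers ran between 28.7 and 2112 in CD163high and between 24.8 and 1782 in CD163low, again with pig 2 at the top. The part of these markers in the results was not tested.

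No member passed the test over all probe sets. In limma without a block, 0 of the 11 probe sets had an adjusted p under 0.05, as for the whole array (0% called), and each had a limma adjusted p of 1. An unadjusted p under 0.05 was reached by 3 of the 11, all of them CHI3L1 and all lower in CD163high, beside 1.36% of all probe sets in that direction. With the pig as a block it was reached by 4, the brightest FCN1 probe set joining them, all lower in CD163high, beside 2.27% of all probe sets in that direction. The groups did not overlap for 4 of the 11, the 3 of CHI3L1 and 1 of FCN1, all lower in CD163high, where 3.37% of all probe sets did so in that direction. These 4 come from 2 genes, and probe sets of a gene share their transcript, so they are not 4 separate observations. In Affymetrix naming the mark _s_ stands for probes that match more than 1 transcript. It is carried by 5 of the 11, the first and the third of CHI3L1, the brightest of PGLYRP1 and both brighter ones of FCN1, and which other transcripts these match was not tested. The populations were the same in direction in all 3 pigs for 4 probe sets lower in CD163high (12.4% of all) and 1 higher (9.99% of all), and the other 6 had mixed signs.

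**Figure D1:**
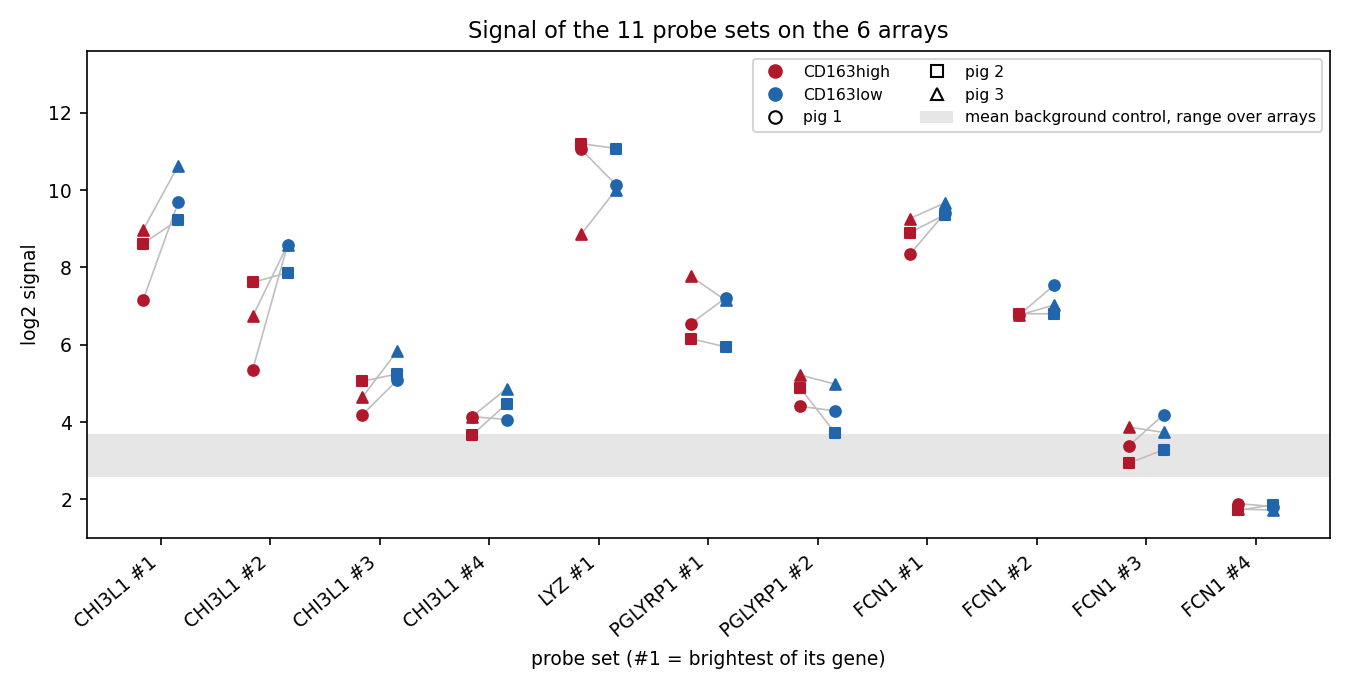
Log2 signal of each of the 11 probe sets, numbered within a gene by brightness, with CD163high in red at the left and CD163low in blue at the right of each position, a symbol per pig and a grey line joining the arrays of a pig. The grey band spans the mean of the background controls over the 6 arrays. CHI3L1 #1, #2 and #3 and FCN1 #1 show no overlap of the groups, and FCN1 #4 lies under the band.

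CHI3L1 had the largest differences among the members, with lower signal in CD163high for its brighter probe sets. In the brightest, SNOWBALL_001581_s_st, the log2 signal was 7.16, 8.62 and 8.97 in CD163high of pigs 1, 2 and 3, against 9.68, 9.23 and 10.63 in CD163low. The lowest CD163low array lay above the highest CD163high array, and CD163high of pig 1 stood lowest of all. The means were 8.25 ± 0.96 in CD163high and 9.85 ± 0.71 in CD163low (SD, n = 3 each), a log2 difference of -1.60 ± 0.57 (SE), or 3.03-fold lower, with a 95% interval between -2.98 and -0.22 that is not adjusted for the number of probe sets. Measured in whole populations, fewer cells that hold the transcript and less transcript per cell cannot be told apart.

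The second CHI3L1 probe set, SNOWBALL_001580_st, had 5.36, 7.61 and 6.74 in CD163high, against 8.59, 7.87 and 8.59 in CD163low. Its difference was -1.78 ± 0.58 on the log2 scale, 3.43-fold lower in CD163high. The third, SNOWBALL_001582_s_st, had 4.19, 5.05 and 4.64 in CD163high, against 5.08, 5.25 and 5.84 in CD163low. In both, the gap between the groups was narrow, set by CD163high of pig 2 and the lowest CD163low array. The differences within pigs 1, 2 and 3 were -2.52, -0.61 and -1.66 for the first probe set, -3.23, -0.26 and -1.85 for the second and -0.89, -0.19 and -1.20 for the third. Pig 2 had the smallest difference in all of these. The fourth and dimmest, SNOWBALL_001583_st, had 4.14, 3.66 and 4.13 in CD163high, against 4.07, 4.47 and 4.87 in CD163low, so that its groups overlapped and pig 1 had the opposite sign (0.078). It had 42 to 51 of the 69 background controls at or under it in CD163high and 45 to 57 in CD163low, so its signal was not well separated from background. The third probe set stood little better in CD163high, with 45 to 54 controls at or under it, and had 51 to 68 in CD163low. The difference of the brightest probe set was -1.05 without CD163high of pig 1 and -2.66 with array weights, and that of the second was -1.05 without pig 1.

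**Figure D2:**
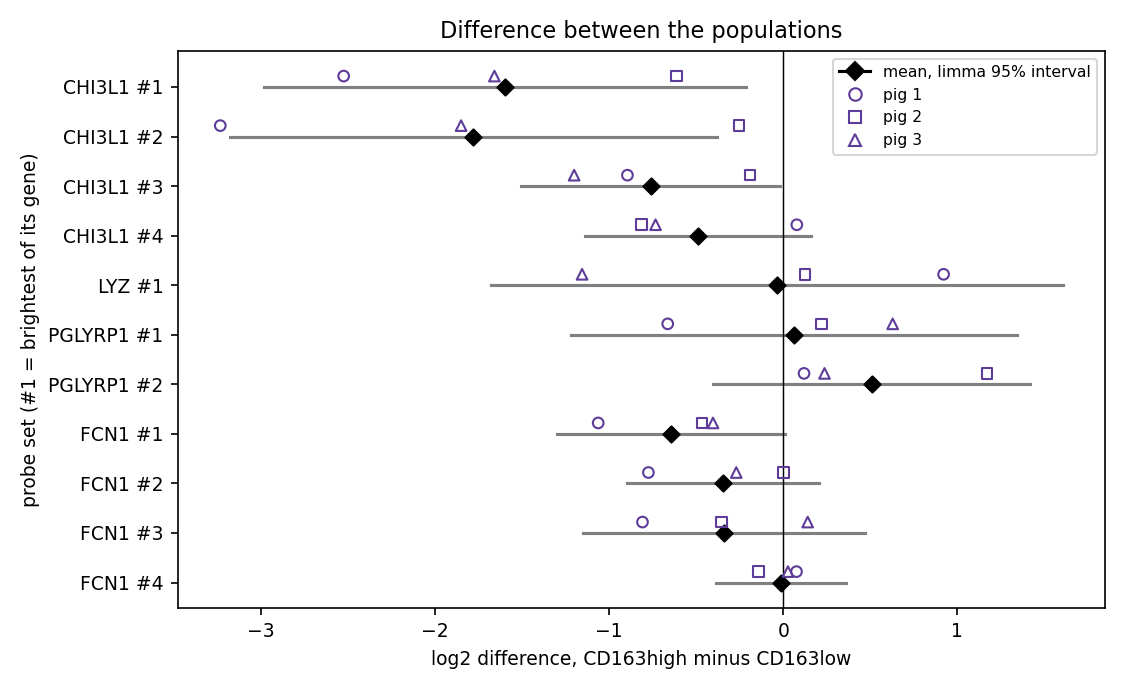
Log2 difference, CD163high minus CD163low, for each of the 11 probe sets. Black diamonds are group mean differences with the 95% interval of the limma fit, unadjusted, and open symbols are the differences within each pig. The intervals of CHI3L1 #1, #2 and #3 end below 0, that of FCN1 #1 ends at 0.010, and those of LYZ and PGLYRP1 span 0 widely.

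Among the 9777 other annotated genes brighter than the median probe set, the gene whose array-to-array pattern was nearest to that of CHI3L1 was CD14, one of the sort antigens. Values of each gene were centred on their mean over the 6 arrays, and the root mean square difference between CHI3L1 and CD14 was 0.30 on the log2 scale, where CHI3L1 itself varied around its mean by 1.06. The next were TNFRSF13C, a receptor for a B cell survival factor, at 0.35 and AGPAT6, an acyltransferase of glycerolipid synthesis, at 0.40. CHI3L1 and CD14 shared their lowest array, CD163high of pig 1, and their highest, CD163low of pig 3. These likenesses rest on 6 arrays from 3 animals and on a search over many genes, so they describe the arrays and carry no test.

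CHIT1, chitotriosidase, the chitin-cleaving enzyme of macrophages, was another member of the chitinase family with lower values in CD163high. Its brighter probe set had 3.22, 6.44 and 3.59 in CD163high, against 6.01, 6.79 and 6.47 in CD163low, a log2 difference of -2.00 ± 0.85 (limma adjusted p = 1). CD163high of pigs 1 and 3 stood far below the other 4 arrays, while CD163high of pig 2 lay among those of CD163low. The value in CD163high of pig 3 fell below the average background control of that array, 3.67, and no fold is given. A second CHIT1 probe set had 2.60, 3.60 and 2.20 in CD163high, against 3.12, 5.22 and 5.23 in CD163low. It was below the average background control on 3 arrays, CD163high of pigs 1 and 3 and CD163low of pig 1, so the size of its difference is uncertain. CHI3L2, a chitinase-like protein, had 0.58 ± 0.45 in the opposite direction, with 1.44 in pig 2 and 0.22 and 0.063 in pigs 1 and 3. It had 42 to 57 background controls at or under it in CD163high and 42 to 51 in CD163low, so its signal was not well separated from background. OVGP1, the oviductal glycoprotein of the family, was under the background mean on all 6 arrays, as was the chitobiase gene CTBS.

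**Figure D3:**
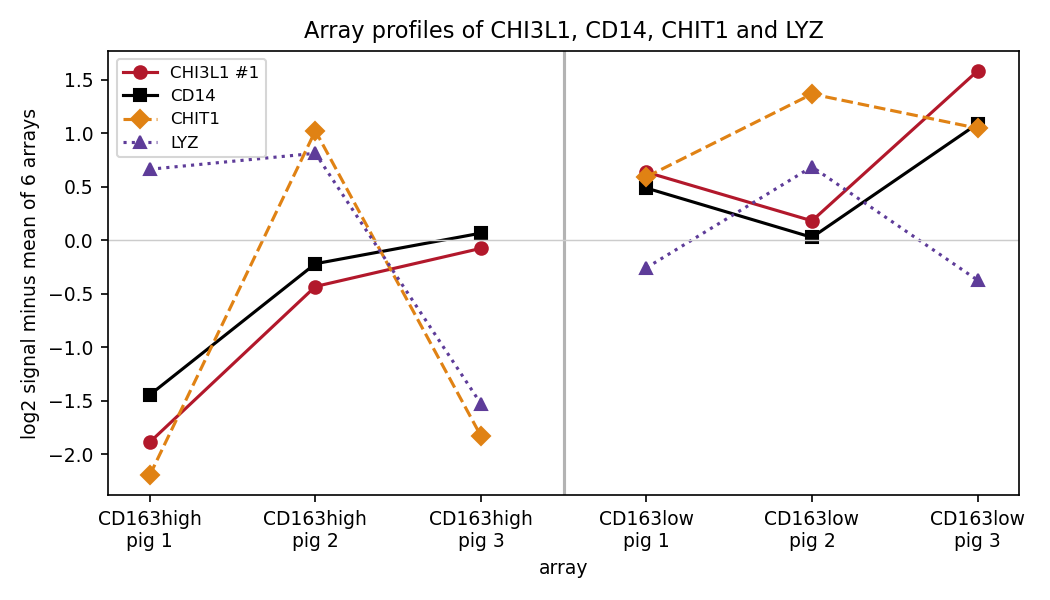
Log2 signal minus the mean of the 6 arrays for the brightest probe sets of CHI3L1, CD14, CHIT1 and LYZ, with the 3 CD163high arrays at the left and the 3 CD163low arrays at the right. CHI3L1 and CD14 run close together on all 6 arrays, CHIT1 departs from them in pig 2 and in CD163high of pig 3, and LYZ follows another course.

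Neutrophils also make CHI3L1, and their share in the sorted cells was not measured here. No neutrophil marker passed the test. The 8 measured of 12 neutrophil markers had a mean log2 signal of 3.81, 4.36 and 4.41 in CD163high, against 4.75, 4.90 and 4.81 in CD163low. Their summed linear signal ran between 411 and 936 in CD163high and between 895 and 1853 in CD163low. This sum is weighted to CSF3R, the brightest of the 8 on every array. Its log2 signal ran between 7.92 and 9.70 in CD163high and between 9.01 and 10.52 in CD163low. The granule protein gene LTF was under the background mean on all 6 arrays, and MPO, ARG1 and OLFM4 were under it on at least 1. Of the 8, 3 were lower in CD163high in all pigs and 5 had mixed signs. The 3 were CXCR2, a chemokine receptor (log2 difference -2.66), CSF3R, the receptor of granulocyte colony-stimulating factor (-1.09), and LCN2, which binds bacterial siderophores (-0.72). For CXCR2 the groups did not overlap, and the unadjusted limma p was 5.3e-04. Monocytes can express CXCR2 and CSF3R too. LTF had 0.10, and MMP9, MPO and OLFM4 lay between -0.097 and -0.068. ARG1 had -0.39 ± 1.39, with mixed signs between pigs. The part of neutrophil RNA in the CHI3L1 difference was not tested.

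FCN1 was lower in CD163high in its brightest probe set, by less than CHI3L1. In this probe set, SNOWBALL_022263_s_st, the log2 signal was 8.34, 8.89 and 9.26 in CD163high of pigs 1, 2 and 3, against 9.40, 9.36 and 9.66 in CD163low. The groups did not overlap, though CD163high of pig 3 came close to CD163low of pig 2. The means were 8.83 ± 0.47 in CD163high and 9.47 ± 0.17 in CD163low (SD, n = 3 each), a log2 difference of -0.64 ± 0.27 (SE), 1.56-fold lower, with a 95% interval between -1.30 and 0.010. Pigs 1, 2 and 3 differed by -1.06, -0.47 and -0.40.

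The other FCN1 probe sets were smaller in difference or near background. The second, SNOWBALL_020943_s_st, had 6.77, 6.80 and 6.76 in CD163high, against 7.54, 6.80 and 7.03 in CD163low. Its CD163high arrays were nearly equal, and CD163low of pig 2 fell among them. The third, SNOWBALL_008651_st, had 3.39, 2.94 and 3.87 in CD163high, against 4.19, 3.29 and 3.73 in CD163low, and lay under the background mean on 1 array. The fourth, SNOWBALL_030237_st, ran between 1.72 and 1.89 in CD163high and between 1.73 and 1.86 in CD163low, under the background mean on all 6 arrays, so it gives no measure of the transcript. The difference of the brightest FCN1 probe set was -0.40 without CD163high of pig 1 and -1.01 with array weights.

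FCN2 encodes a further ficolin, and both brighter FCN1 probe sets carry the mark _s_, so cross-reaction between near-identical ficolin sequences was not tested. FCN2 was named after its values were seen. Its brightest probe set had 6.98, 7.79 and 6.70 in CD163high, against 7.46, 8.16 and 7.11 in CD163low, with log2 differences of -0.47, -0.37 and -0.41 in pigs 1, 2 and 3 and of -0.42 ± 0.39 over the groups. The next FCN2 probe set had 6.53, 6.35 and 7.27 in CD163high, against 7.93, 5.37 and 6.60 in CD163low, with opposite signs between pigs. The pattern nearest to FCN1 was that of INPP5D, an inositol phosphatase of blood cells, at a root mean square difference of 0.097, followed by the transcription factor gene FOXO3 at 0.098 and by MBD6 at 0.12, where FCN1 varied around its mean by 0.43.

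LYZ was bright in both populations and its group means lay close together. In its 1 probe set, SNOWBALL_000938_st, the log2 signal was 11.05, 11.20 and 8.86 in CD163high of pigs 1, 2 and 3, against 10.13, 11.07 and 10.01 in CD163low. CD163high held both the highest and the lowest array. The means were 10.37 ± 1.31 in CD163high and 10.40 ± 0.58 in CD163low (SD, n = 3 each), a log2 difference of -0.036 ± 0.68 (SE). Its 95% interval, from -1.68 to 1.60, is wide on both sides of 0, so the data do not show that the populations were alike. Within pigs 1, 2 and 3 the difference was 0.92, 0.13 and -1.16.

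PGLYRP1 likewise had group means that differed by less than the spread between arrays. Its brightest probe set, SNOWBALL_023414_s_st, had 6.55, 6.16 and 7.77 in CD163high, against 7.21, 5.94 and 7.15 in CD163low, a difference of 0.061 ± 0.53 with a 95% interval from -1.22 to 1.34. CD163high of pig 3 was highest, and both arrays of pig 2 were lowest. The dimmer probe set, SNOWBALL_008352_st, had 4.41, 4.88 and 5.22 in CD163high, against 4.29, 3.71 and 4.98 in CD163low. It was higher in CD163high in each pig, by 0.12, 1.17 and 0.24, the groups overlapped, and the difference was 0.51 ± 0.38. It was -0.19 with array weights, 0.18 without pig 2, 0.20 without CD163low of pig 2, 0.32 without CD163high of pig 3 and 0.83 without CD163low of pig 3. On this probe set 48 to 54 of the 69 background controls lay at or under its signal in CD163high and 45 to 54 in CD163low. The 2 probe sets had their lowest value on the same array, CD163low of pig 2, and their highest on CD163high of pig 3.

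The signals of LYZ and of the brightest PGLYRP1 probe set split the arrays by their background controls, not by population. The mean log2 signal of the 69 background controls was 2.82, 2.97 and 3.67 in CD163high of pigs 1, 2 and 3, and 3.29, 2.60 and 3.06 in CD163low. The 3 arrays with the lowest background were the 3 with the highest LYZ, between 11.05 and 11.20, and the 3 with the highest background had LYZ between 8.86 and 10.13. The brightest PGLYRP1 probe set ran the other way, with 5.94 to 6.55 on the 3 arrays of lowest background and 7.15 to 7.77 on the other 3. The dimmer PGLYRP1 probe set did not split in this way, with 3.71 to 4.88 on the former and 4.29 to 5.22 on the latter. CHI3L1 showed no such split, with 7.16 to 9.23 on the 3 arrays of lowest background and 8.97 to 10.63 on the others. The split was not particular to LYZ and PGLYRP1. The first principal component of all non-control probe sets, the axis along which the arrays varied most, held 55.2% of the variance. It was -41.5 and -80.6 on CD163high of pigs 1 and 2 and -92.3 on CD163low of pig 2. On CD163high of pig 3 and CD163low of pigs 1 and 3 it was 97.2, 88.3 and 28.9. With the background control signal as a covariate, an alternative chosen after the data were seen, the log2 difference was 0.36 ± 0.30 (SE) for LYZ, -0.24 ± 0.24 for PGLYRP1, -1.84 ± 0.46 for CHI3L1 and -0.75 ± 0.22 for FCN1, all in their brightest probe sets. The signs of LYZ and PGLYRP1 turned in these, and those of CHI3L1 and FCN1 did not. The dimmer PGLYRP1 probe set kept its sign, at 0.35 ± 0.30. The 2 arrays of highest background were CD163high of pig 3 and CD163low of pig 1. Without them the brightest probe sets had differences of 0.58 for LYZ, -0.19 for PGLYRP1, -2.04 for CHI3L1 and -0.90 for FCN1.

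**Figure D4:**
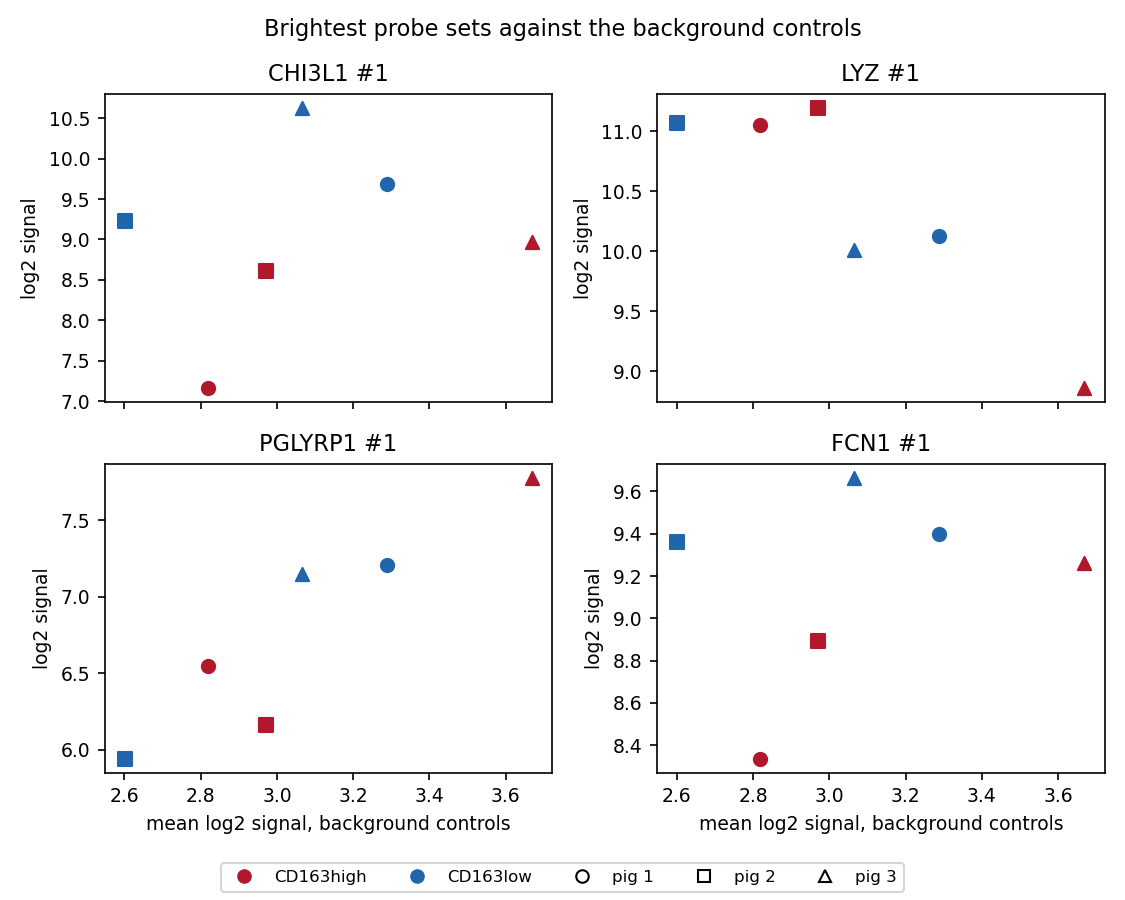
Log2 signal of the brightest probe set of each member (vertical axes, each with its own range that does not start at 0) against the mean log2 signal of the 69 background controls of the same array. LYZ is above 11 on the 3 arrays of lowest background and PGLYRP1 is highest where the background is highest, at 3.67.

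The genes nearest to LYZ and PGLYRP1 in pattern followed the same arrays. For LYZ they were MSL3, a chromatin protein, at a root mean square difference of 0.098, TXNDC12, a thioredoxin-like protein of the endoplasmic reticulum, at 0.14 and EYA3 at 0.14, where LYZ varied around its mean by 0.83. For PGLYRP1 they were SLC26A1, an anion transporter, at 0.070, FAM19A5 at 0.071 and NIT1 at 0.091, where PGLYRP1 varied by 0.64. These distances were smaller than that between CHI3L1 and CD14, but CHI3L1 varied more around its own mean, by 1.06. The Pearson correlation was 0.994 for CHI3L1 with CD14. For the genes nearest to LYZ and PGLYRP1 it ran from 0.988 to 0.997. MSL3 had its lowest value, 5.44, on CD163high of pig 3, where SLC26A1 had its highest, 6.62.

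A wider group of related genes showed no common direction. Of 72 listed symbols for antimicrobial enzymes and peptides, chitinase-family proteins, peptidoglycan or lipopolysaccharide binders and soluble lectins with their partners, 39 were measured, among them 15 higher and 24 lower in CD163high by their brightest probe set. Their median log2 difference was -0.097, against -0.013 over all 13755 annotated genes. None of the 39 passed in limma (adjusted p under 0.05), 1 had an unadjusted p under 0.05 (3.27% of all annotated genes did), and 20 were under the background mean on at least 1 array, 8 of them on all 6. In all 3 pigs 2 of the 39 were higher and 8 lower, where 10.5% of all annotated genes were higher and 12.5% lower in this way.

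By its brightest probe set, the 1 gene with an unadjusted p under 0.05 was LGALS1, galectin-1, a secreted lectin for galactosides; the dimmer CHIT1 probe set also had an unadjusted p under 0.05. LGALS1 had 7.25, 7.05 and 6.89 in CD163high of pigs 1, 2 and 3, against 6.34, 6.34 and 5.58 in CD163low. The groups did not overlap, and the difference was 0.98 ± 0.26 (limma adjusted p = 1). LGALS3, galectin-3, had 5.83, 5.17 and 5.24 in CD163high, against 5.73, 5.93 and 6.88 in CD163low, a difference of -0.77 ± 0.36 with a small opposite value in pig 1 (0.093). The dimmer LGALS3 probe sets had differences of -0.36, -0.0049 and 0.25, so they did not share 1 direction. The lung collectin genes SFTPD (-0.41 ± 0.19) and SFTPA1 (0.35 ± 0.41) were under the background mean on 6 and 5 arrays, so their differences are uncertain.

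Among the 14 antimicrobial enzymes and peptides measured, 10 had negative and 4 positive differences, with a median of -0.16. LCN2 had 3.22, 3.95 and 4.11 in CD163high, against 3.75, 4.80 and 4.89 in CD163low (difference -0.72 ± 0.39). This probe set had 42 to 48 background controls at or under it in CD163high and 43 to 58 in CD163low, so it was not well separated from background. A dimmer LCN2 probe set, under the background mean on 5 arrays, had 0.19 ± 0.25 with mixed signs between pigs. GNLY, a lytic protein of T and NK cells, had 7.75, 9.45 and 7.15 in CD163high, against 8.23, 9.66 and 9.35 in CD163low (-0.96 ± 0.67). By their brightest probe sets LCN2 and GNLY were lower in CD163high in each pig, with overlapping groups. On the positive side DEFB1, a beta-defensin, had 0.20 ± 0.43 and SLPI, a protease inhibitor of mucosal secretions, had 0.11 ± 0.30, each with mixed signs between pigs. Of the binders of bacterial wall products, PGLYRP4 had -0.34 ± 0.28, LBP, which hands lipopolysaccharide to CD14, had -0.022 ± 0.20, and PGLYRP2, an amidase of peptidoglycan, had 0.11 ± 0.21. All 3 were under the background mean on at least 1 array. These values are from the brightest probe sets. The dimmer LBP probe sets had 0.55 ± 0.26 and 0.21 ± 0.25, each with mixed signs between pigs.

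**Figure D5:**
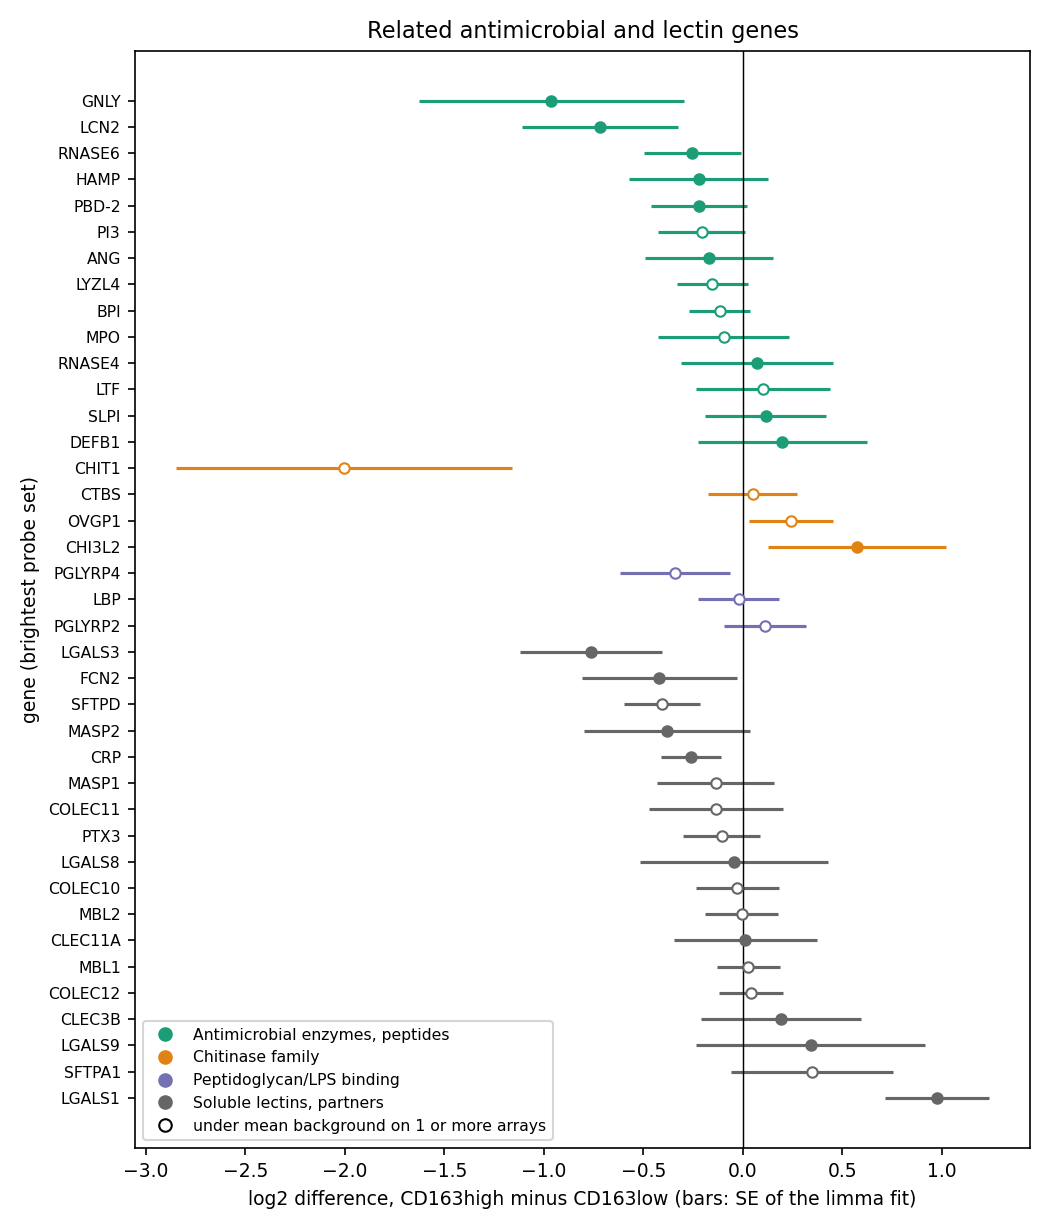
Log2 difference, CD163high minus CD163low, with the SE of the limma fit, for the brightest probe set of the 39 related genes, coloured by list and ordered by size within it. Open symbols mark the 20 genes under the background mean on at least 1 array. CHIT1 lies furthest to the left at -2.00 and LGALS1 furthest to the right at 0.98.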

How the data were processed

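The deposited values are probe-set intensities of 6 arrays, 1 per sorted population and pig. Per the submitters' processing notes RMA and limma were used, with no version or role stated. The build behind the array is not given in sources used here, and coordinates are left out. RMA narrows differences of dim probe sets. The first 186 of the 47845 rows held log2 values and the rest antilogs, so log2 was taken of the latter only, and 123 array controls did not enter the test. Symbols came from the array's annotation, and all 4 members were found in RefSeq (Sscrofa11.1).

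The test was limma 3.58.1 (R 4.3.3; lmFit and eBayes) over 47722 probe sets, CD163high against CD163low, two-sided, without a block, with Benjamini-Hochberg adjustment and a threshold of 0.05. Each pig gave both arrays, per the labels, so blocking on the pig was tried as an alternative. Deviations from the group means correlated at -0.20, 0.67 and 0.26 across probe sets between the arrays labelled pig 1, 2 and 3, and at 0.60 for the CD163high array of pig 3 with the CD163low array of pig 1. Precision is limited by the number of arrays. Functions were tested on simulated data. A gene outside the members was represented by its brightest probe set.

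Members and lists were chosen with earlier results of these data known. Named besides the members were CD14 and CD163, the up to 2 genes in each direction with the smallest p in each related list, and the 3 genes nearest in pattern to each member. EIF1AY, FCN2, CTBS, CSF3R, CXCR2, LTF, MPO, ARG1 and OLFM4 were picked with their values in view. Alternatives were a fixed or random block for the pig, quantile normalization, median centring, trended robust variance, array weights, removal of the dimmest probe sets (a share of 0.3333 or 0.5), a threshold of 0.1, and omission of each pig and array. The background covariate and the omission of 2 arrays were added after seeing the data.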

Additional observations from a re-analysis of the deposited data

How the results depend on the processing

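In limma, 0 of the 11 probe sets, 0 of the probe sets of the wider lists and 0 of all probe sets had an adjusted p under 0.05 in each alternative tried, a threshold of 0.1 included. The fit with the pig as a replicate block changed no call; the brightest CHI3L1 probe set had a log2 difference of -1.60 ± 0.40 (SE) and that of FCN1 -0.64 ± 0.22 in the blocked fit. The smallest limma adjusted p of a member was 0.174, for the brightest CHI3L1 probe set with array weights. All 4 CHI3L1 probe sets and the 3 brighter ones of FCN1 were lower in CD163high under all 19 alternatives. Part of this was fixed in advance. Blocks, trended robust variance and removal of dim probe sets leave the difference itself unchanged. Where the groups do not overlap, omission of arrays or pigs cannot turn the sign. Across the 19 alternatives the brightest CHI3L1 probe set ran from -2.66 to -1.05 and the brightest FCN1 probe set from -1.01 to -0.40. From the second to the fourth, the CHI3L1 probe sets ran from -2.54 to -1.05, from -1.24 to -0.54 and from -0.77 to -0.29, and the second and the third FCN1 probe sets from -0.52 to -0.13 and from -0.58 to -0.11.

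In 4 probe sets, none of them called, the sign changed in some settings; their differences were -0.036 for LYZ, 0.061 and 0.51 for PGLYRP1 and -0.013 for the dimmest of FCN1. With array weights the difference was 0.74 for LYZ, -0.49 for the brightest and -0.19 for the dimmer PGLYRP1 probe set and 0.084 for the dimmest FCN1 probe set. With median centring it was 0.0033 for LYZ and 0.027 for the dimmest FCN1 probe set. With the background control signal as a covariate it was 0.36 for LYZ, -0.24 for the brightest PGLYRP1 and 0.0041 for the dimmest FCN1 probe set. Without the 2 arrays of highest background it was 0.58 for LYZ, -0.19 for the brightest PGLYRP1 and 0.013 for the dimmest FCN1 probe set. With single pigs or arrays left out, LYZ ran from -0.51 to 0.72, the brightest PGLYRP1 probe set from -0.41 to 0.42, the dimmer one from 0.18 to 0.83, and the dimmest FCN1 probe set from -0.065 to 0.052. Why these signs turned was not tested. The median of the wider lists ran from -0.13 to -0.035. The dimmest FCN1 probe set was absent once the dimmest probe sets were removed, so those settings gave no value for it. Of the members 1 probe set was below the average background control of each array, which limits what it can show.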

Other observations

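The members also differed between pigs. Averaged over both arrays of a pig, the log2 signal of LYZ was 10.59, 11.14 and 9.43 in pigs 1, 2 and 3, a range of 1.70. The brightest PGLYRP1 probe set averaged 6.88, 6.05 and 7.46 in the same pigs, with pig 2 lowest where LYZ was highest. CHI3L1 averaged 8.42, 8.92 and 9.80 and FCN1 8.87, 9.13 and 9.46, both lowest in pig 1 and highest in pig 3. In CD163low alone both were lowest in pig 2, at 9.23 for CHI3L1 and 9.36 for FCN1, against 9.68 and 9.40 in pig 1. Both arrays of pig 2 were among the 3 of lowest background and both of pig 3 among the other 3. Pig and array background therefore cannot be told apart. With 3 pigs and the doubt over the labels of pigs 1 and 3, these are values without a test.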
